A study of Mus musculus with 8 samples.

Results

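The respiratory chain moves electrons from NADH and succinate to oxygen through complexes I to IV of the inner mitochondrial membrane, and ATP synthase, complex V, uses the proton gradient so built to make ATP. Most subunits are encoded in the nucleus, while complexes I, III, IV and V also hold subunits encoded in mitochondrial DNA. In pancreatic beta cells, ATP made by this chain from glucose closes potassium channels and so couples glucose to insulin release.

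The nuclear subunit genes of these complexes were followed on 1-colour arrays of pancreatic beta cell RNA from C57BL/6 mice, with 4 biological replicates on a high-fat diet and 4 on a control (chow) diet. No transgene or other agent is named in the labels, and the duration and composition of the diets, the age of the mice and the way the beta cells were isolated are not given in the sources used here. The labels do not say whether each replicate came from a separate mouse, so p-values measure only the spread between these samples. Genes were chosen by the name of their probe (the Nduf, Sdh, Uqcr, Cox4 to Cox8 and Atp5 names, and Cyc1) and by a signal well above background on at least 4 of the 8 arrays. Of 89 genes matched by name, 86 with 125 probes were kept, among 19994 genes with 26076 probes kept in all. Of these 86, 78 encode subunits: 36 of complex I, 4 of complex II, 9 of complex III, 14 of complex IV and 15 of complex V. The other 8 are assembly factors, a pseudogene or proteins whose place lies elsewhere, and were counted apart. The 3 genes not kept were Cox7b2 and Cox8c, above background on 0 arrays, and Cox8b, above background on 2.

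The arrays lay on 2 slides with 2 arrays of each diet on each slide. High-fat samples always took the same positions within a slide and control samples the others, so position on the slide cannot be told apart from diet. The 75th percentile of the processed signal lay between 363.4 and 472.0 intensity units on the high-fat arrays and between 333.6 and 710.8 on the control arrays. Between 63.6% and 68.6% of spots were well above background and none was saturated. The number of arrays limits the precision: the median standard error of a log2 difference between diets was 0.17 over all genes and 0.13 over the 78 subunits. Of the subunits, 77 were well above background on all 8 arrays; the exception was Ndufa5, whose spot was an outlier on 1 control array, which its fit leaves out. All 10 beta cell markers (insulin genes, Iapp, Mafa, Pdx1 and others) were well above background on every array, and so were all 6 alpha cell, all 5 delta and PP cell and all 12 acinar cell markers, so no marker of these lists was at background in either diet.

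Promoter sequence is printed for 1 gene of each complex as an example of strings that some subunit genes share. The choice of the subunit genes by name did not use these strings. As a group the printed windows hold matches more often than subunit genes do in the counts given below, so they are not typical of their complexes. The windows are the 250 bases before the annotated start, written 5' to 3' on the gene's strand, from RefSeq on GRCm38.p6. Capitals mark matches to the NRF1 motif (GCGCN followed by TGCGC) or the ETS motif (CCGGAAG), each on either strand. NRF1 and the ETS factor GABP are transcription factors known for driving nuclear genes of the respiratory chain. The windows are Ndufa1 of complex I (chrX:37191239-37191488), Sdhd of complex II (chr9:50603850-50604099), Uqcr11 of complex III (chr10:80406822-80407071), Cox6a1 of complex IV (chr5:115348959-115349208) and Atp5h of complex V (chr11:115419920-115420169), all on the minus strand.
Ndufa1: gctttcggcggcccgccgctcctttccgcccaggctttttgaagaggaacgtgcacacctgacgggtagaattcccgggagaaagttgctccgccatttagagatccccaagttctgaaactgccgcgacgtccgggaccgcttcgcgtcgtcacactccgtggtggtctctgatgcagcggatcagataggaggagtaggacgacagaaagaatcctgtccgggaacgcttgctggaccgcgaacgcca
Sdhd: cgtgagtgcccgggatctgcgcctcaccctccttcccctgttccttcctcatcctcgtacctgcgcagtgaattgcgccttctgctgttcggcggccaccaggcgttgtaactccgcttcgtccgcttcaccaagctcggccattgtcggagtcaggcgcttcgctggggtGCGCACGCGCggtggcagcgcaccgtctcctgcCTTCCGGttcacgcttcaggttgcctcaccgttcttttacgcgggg
Uqcr11: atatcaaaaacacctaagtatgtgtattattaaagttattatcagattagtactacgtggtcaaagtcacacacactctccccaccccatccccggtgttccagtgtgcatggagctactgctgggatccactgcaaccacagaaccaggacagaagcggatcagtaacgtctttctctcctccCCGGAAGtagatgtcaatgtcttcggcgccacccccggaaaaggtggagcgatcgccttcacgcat
Cox6a1: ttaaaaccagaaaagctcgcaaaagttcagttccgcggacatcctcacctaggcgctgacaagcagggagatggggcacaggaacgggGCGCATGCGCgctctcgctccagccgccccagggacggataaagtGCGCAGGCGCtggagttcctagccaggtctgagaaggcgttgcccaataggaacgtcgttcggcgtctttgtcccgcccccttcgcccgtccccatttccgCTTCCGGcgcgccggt
Atp5h: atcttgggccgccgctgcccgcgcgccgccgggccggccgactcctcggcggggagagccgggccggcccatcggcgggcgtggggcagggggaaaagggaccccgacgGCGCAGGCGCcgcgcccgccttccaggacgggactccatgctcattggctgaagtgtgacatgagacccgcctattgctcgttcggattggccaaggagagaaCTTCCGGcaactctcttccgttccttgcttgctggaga
The Sdhd window holds an NRF1 match that begins 79 bases before the start and an ETS match at 46. The Cox6a1 window holds NRF1 matches at 162 and 117 and an ETS match at 16, the Atp5h window an NRF1 match at 141 and an ETS match at 38, and the Uqcr11 window an ETS match at 66. The Ndufa1 window holds neither string.

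Windows of 300 bases (250 before to 50 after the start) were matched for 64 of the 78 subunit genes. In these, the NRF1 motif was found in 17 genes (26.6%), against 5.19% of the 27025 genes in the table, and the ETS motif in 16 (25.0%), against 9.93%. The YY1 motif AAGATGGCG was found in 7 (10.9%), against 1.64%, and the ERR motif TCAAGGTCA in 2 (3.13%), against 0.466%, all on both strands. By complex, the NRF1 motif was in 7 of 32 genes of complex I, 2 of 3 of complex II, 1 of 5 of complex III, 1 of 10 of complex IV and 6 of 14 of complex V. The median diet difference was nearly the same with and without a motif, at 0.16 (log2, high-fat minus control) for subunit genes with the NRF1 motif and 0.15 for those without, and 0.16 with the ETS motif and 0.15 without. A match is a string in a window and no measured site.

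On the high-fat diet, subunit genes of all complexes stood slightly above the control diet, but no subunit passed the test. The median log2 difference was 0.15 for complex I, 0.091 for complex II, 0.19 for complex III, 0.15 for complex IV and 0.16 for complex V, and 0.16 over all 78 subunits, which is 1.11-fold. It was -0.0014 over all genes tested. The difference lay above 0 for 35 of 36 genes of complex I, 3 of 4 of complex II, 9 of 9 of complex III, 13 of 14 of complex IV and 15 of 15 of complex V. That is 75 of 78 (96.2%), where 49.7% of all genes tested lay above 0. Most subunits had a high array signal, where more of the other genes lay above 0 too. At mean log2 levels between 3 and 6, relative to the 75th percentile of each array, 77.6% of 1878 other genes did, and 94.9% of 59 subunits. The sign turned under normexp background correction, with complex medians between -0.34 and -0.25. It held, with medians between 0.084 and 0.17, once 7 smeared spots of high-fat array 2 were left out of that correction.

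By limma with Benjamini-Hochberg adjustment over 19994 genes, 0 of 78 subunits passed an adjusted p of 0.05, where 0% of all genes passed; the adjusted p of the subunits lay between 0.784 and 0.987. At an unadjusted limma p under 0.05 stood 3 subunits (3.85%), Ndufa1, Uqcrq and Atp5g1, all higher on the high-fat diet by their probe of highest mean. Of all genes, 5.81% stood there, 2.5% higher and 3.32% lower. The high-fat and control arrays did not overlap for 2 subunits (2.56%), Ndufb2 and Uqcrq, both higher, against 3.41% of all genes, 1.7% higher and 1.71% lower. Both shares were below those of all genes in either direction and above those of genes higher on the high-fat diet, and they rest on 3 and 2 genes. In these bulk samples, a change in RNA per cell and a change in the make-up of the cells cannot be told apart.

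**Figure D1:**
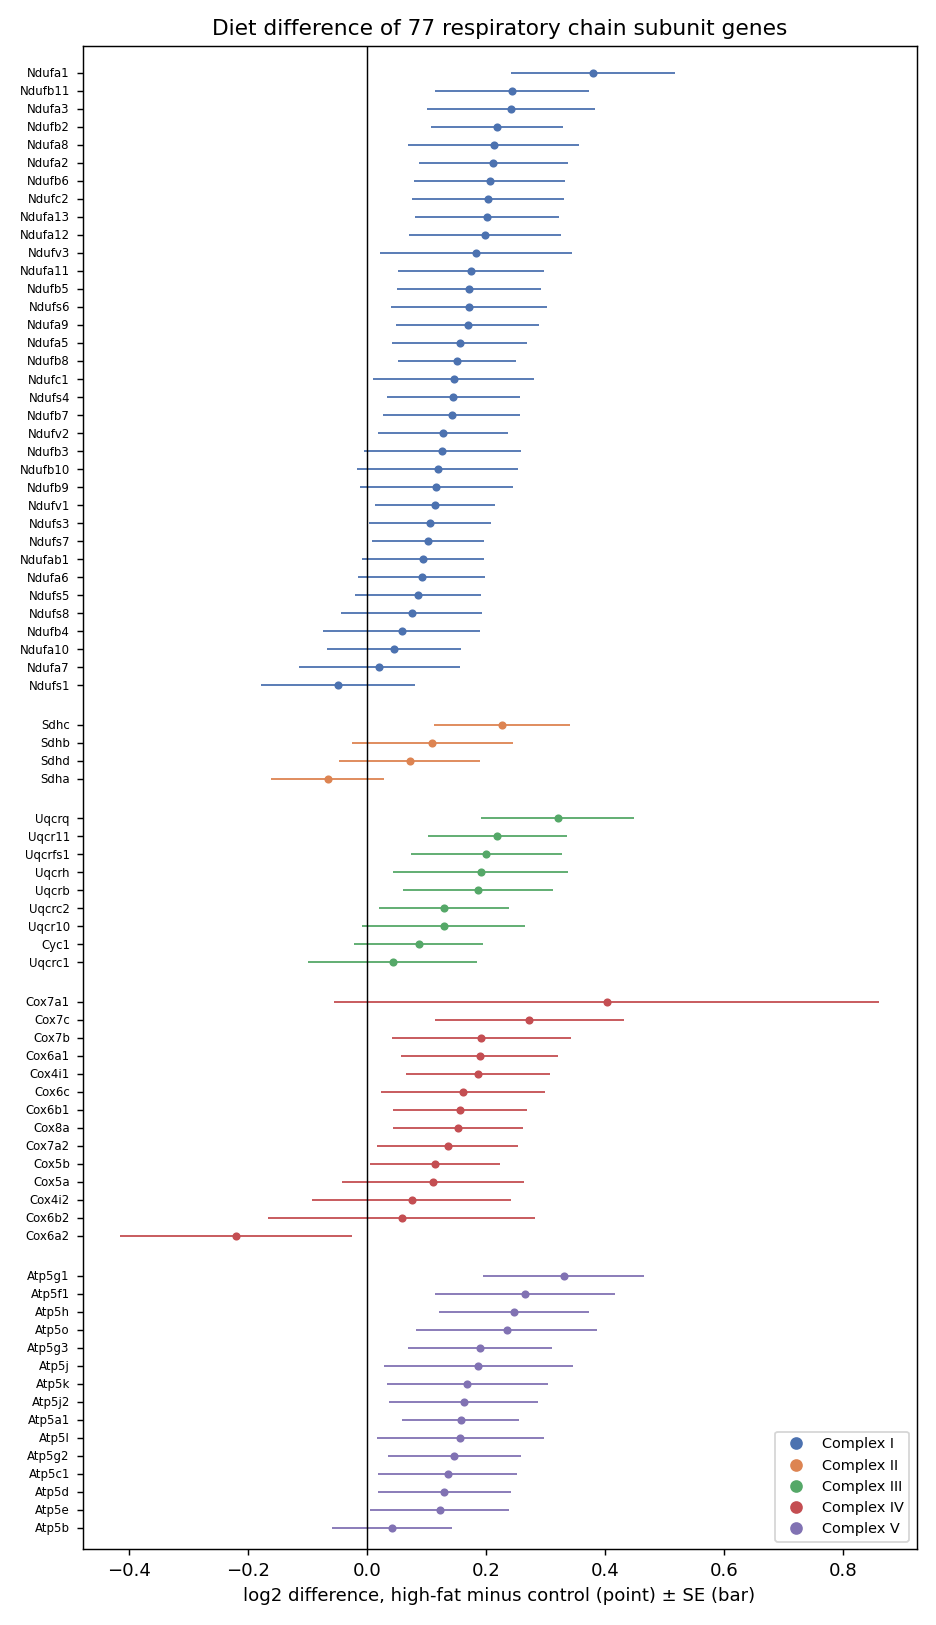
Log2 difference between high-fat and control arrays (x axis, point) with its standard error (bar, n = 4 arrays per diet) for 77 of the 78 subunit genes, grouped by complex from I at the top to V at the bottom. Points for 74 genes lie right of 0, most within 1 or 2 standard errors of it; the exceptions are Ndufs1, Sdha and Cox6a2, and under normexp background correction 3 of the 78 differences were above 0.

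Complex I accepts electrons from NADH. Its core subunits carry the flavin, the iron-sulfur clusters and the quinone site, and its accessory subunits build and stabilise the rest. The nuclear core subunits had a median log2 difference of 0.11, with 6 of 7 above 0, and the accessory subunits 0.17, with 29 of 29 above 0. Levels below are log2 of the processed signal relative to the 75th percentile of each array.

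Ndufa1, a small accessory subunit of the membrane arm (probe at chrX:34727627-34727686 in mm9, minus strand), had the smallest p of the subunit genes, each by its probe of highest mean. Its level was 5.20, 5.74, 5.42 and 5.56 on high-fat arrays 1 to 4, against 4.99, 5.27, 5.06 and 5.06 on control arrays 1 to 4. High-fat array 1 lay below control array 2, and the other 3 high-fat arrays lay above every control array. The log2 difference was 0.38 ± 0.14 (SE), 1.30-fold, with a limma p of 0.024 and an adjusted p of 0.784. It was 0.34 on slide 1 and 0.42 on slide 2.

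Ndufb2, an accessory subunit of the membrane arm, had levels of 4.59, 4.88, 4.54 and 4.65 on high-fat arrays 1 to 4, against 4.35, 4.52, 4.53 and 4.39 on control arrays 1 to 4. The lowest high-fat array lay just above the highest control array. The log2 difference was 0.22 ± 0.11 (adjusted p 0.869, limma). Ndufb11 and Ndufa3, also accessory subunits, differed by 0.24 ± 0.13 and 0.24 ± 0.14, with overlapping arrays. Among core subunits, Ndufv2, an iron-sulfur protein of the NADH-oxidising module, differed by 0.13 ± 0.11. Ndufs1, the large iron-sulfur subunit of the peripheral arm, had the lowest difference of complex I, -0.048 ± 0.13, with -0.22 on slide 1 and 0.12 on slide 2.

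Complex II, succinate dehydrogenase, is the complex with no mitochondrially encoded subunit and is shared with the TCA cycle. None of its 4 subunits passed the test. Sdha, the flavoprotein, differed by -0.066 ± 0.095, and Sdhb, the iron-sulfur protein, by 0.11 ± 0.14. Of the membrane anchors, Sdhd differed by 0.072 ± 0.12 and Sdhc by 0.23 ± 0.11. The level of Sdhc was 2.48, 2.90, 2.64 and 2.64 on high-fat arrays 1 to 4, against 2.37, 2.52, 2.36 and 2.50 on control arrays 1 to 4. Only high-fat array 1 fell within the control range. The median of complex II, over 4 genes, was the lowest of the 5 complexes here; differences between complexes were not tested.

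Complex III passes electrons from ubiquinol to cytochrome c. Uqcrq, a small subunit next to cytochrome b (probe at chr11:53242451-53242510 in mm9, minus strand), had levels of 5.51, 5.79, 5.61 and 5.63 on high-fat arrays 1 to 4, against 5.05, 5.51, 5.42 and 5.29 on control arrays 1 to 4. The groups did not overlap, although high-fat array 1 and control array 2 both round to the same value. The log2 difference was 0.32 ± 0.13, 1.25-fold, with a limma p of 0.036 and an adjusted p of 0.809, and its second probe gave 0.42 ± 0.23. Uqcr11, another small subunit, differed by 0.22 ± 0.12, Uqcrb, a quinone-binding subunit, by 0.19 ± 0.13, and Uqcrfs1, the Rieske iron-sulfur protein, by 0.20 ± 0.13. Uqcrc1, a core protein, had the lowest difference of the complex, 0.043 ± 0.14.

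Complex IV, cytochrome c oxidase, reduces oxygen; its catalytic subunits are mitochondrially encoded and its nuclear subunits include isoforms that differ between tissues. Of 13 listed isoform genes 10 were measured, 9 of them above 0. Cox4i1, the common form of the regulatory subunit, differed by 0.19 ± 0.12. Cox6a1, the common form of the 6a subunit, also differed by 0.19 ± 0.13, while Cox7c and Cox8a, small subunits, differed by 0.27 ± 0.16 and 0.15 ± 0.11.

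Cox6a2, the heart and muscle form of the 6a subunit, had the lowest difference of all 78 subunits. Its level was 4.85, 4.95, 4.46 and 4.12 on high-fat arrays 1 to 4, against 4.76, 5.05, 4.66 and 4.78 on control arrays 1 to 4. High-fat arrays 3 and 4, both on slide 2, lay below all control arrays, and high-fat arrays 1 and 2 lay within the control range. The log2 difference was -0.22 ± 0.19 (adjusted p 0.936, limma), with -0.0083 on slide 1 and -0.43 on slide 2. Of the other restricted isoforms, Cox7a1, the heart and muscle form of subunit 7a, differed by 0.40 ± 0.46, the largest error among the subunits. Cox4i2, known from lung, differed by 0.075 ± 0.17, and Cox6b2, known from testis, by 0.059 ± 0.22.

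Complex V makes ATP in its F1 head, which the peripheral stalk holds in place while the c-ring turns. The F1 subunits had a median difference of 0.13 (5 of 5 above 0), the c-ring genes 0.19 (3 of 3) and the stalk and membrane subunits 0.19 (7 of 7). Atp5g1, 1 of 3 genes that encode the c-ring subunit, had levels of 5.29, 5.78, 5.48 and 5.66 on high-fat arrays 1 to 4, against 5.08, 5.34, 5.33 and 5.13 on control arrays 1 to 4. High-fat array 1 lay below control arrays 2 and 3, and the other high-fat arrays lay above every control array. The log2 difference was 0.33 ± 0.14, 1.26-fold, with a limma p of 0.039 and an adjusted p of 0.816, but the second probe of the gene gave -0.19 ± 0.20. Atp5g3, another c-ring gene, differed by 0.19 ± 0.12. Atp5h and Atp5f1, subunits of the peripheral stalk, differed by 0.25 ± 0.13 and 0.27 ± 0.15. In the F1 head, Atp5a1, the alpha subunit, differed by 0.16 ± 0.099, Atp5d, the delta subunit, by 0.13 ± 0.11, and Atp5b, the catalytic beta subunit, by 0.042 ± 0.10, the lowest of the complex.

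**Figure D2:**
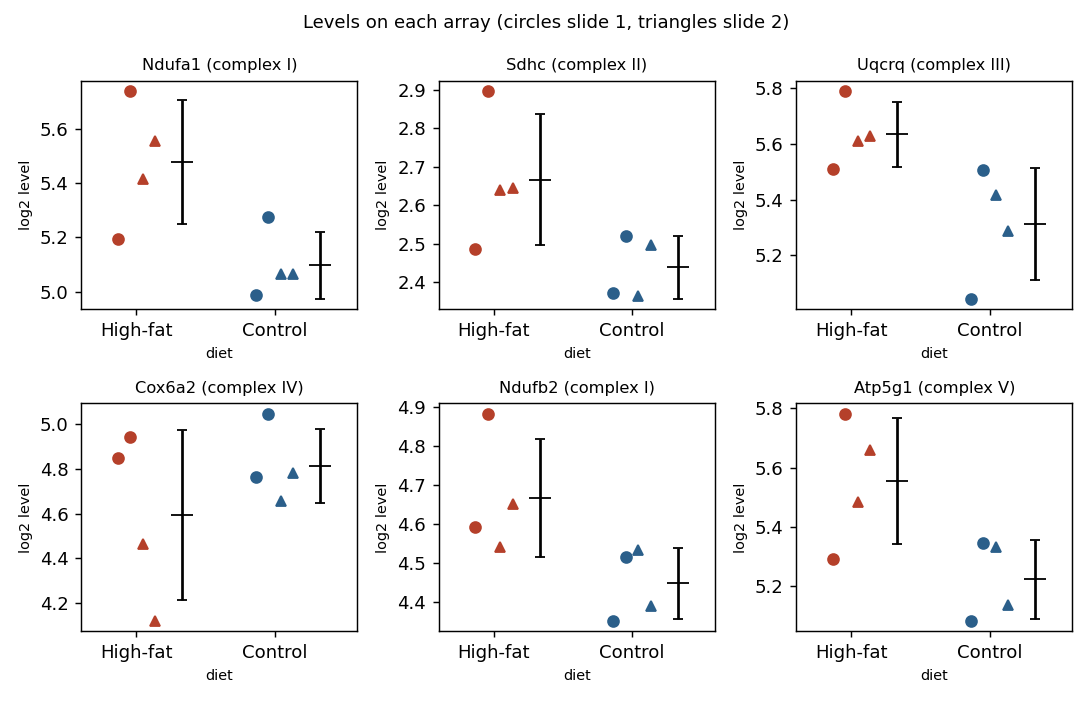
Log2 level on each array, relative to the 75th percentile of the array (y axis), for 6 subunits by diet (x axis, high-fat left), with circles for slide 1 and triangles for slide 2; bars are the mean ± SD (n = 4). The arrays of the diets do not overlap for Uqcrq and Ndufb2 and overlap for Ndufa1, Sdhc, Cox6a2 and Atp5g1. The differences of all but Cox6a2 turned sign under normexp.

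The 8 genes counted apart had a median difference of 0.031, with 4 above 0. Ndufa4l2 differed by 0.29 ± 0.11 (limma p 0.027, adjusted p 0.791) and Ndufa4, first described in complex I and since placed in complex IV, by 0.31 ± 0.16. The assembly factors of complex II did not share this sign, with Sdhaf1 at -0.10 and Sdhaf2 at -0.064.

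Where a gene had several probes, these mostly ran the same way. Of 27 subunit genes with more than 1 kept probe, the probes of 24 shared a sign and those of Atp5g1, Ndufa3 and Ndufv3 did not. The median spread between probes of a gene was 0.052. Taken singly, 5 of 115 kept subunit probes had an unadjusted limma p under 0.05, 4 higher and 1 lower on the high-fat diet. Of all 26076 probes, 1508 had such a p. Ndufv3, an accessory subunit of the NADH-oxidising module, had 3 probes: the one that represents the gene (chr17:31668209-31668268 in mm9, plus strand), which the array design matches to 2 RefSeq transcripts, gave 0.18 ± 0.16, and another gave 0.073 ± 0.27. The remaining probe (chr17:31665148-31665207), matched to 1 of these 2 transcripts, gave -0.31 ± 0.13 (limma p 0.035, over all probes). It is the 1 lower probe counted above. On that remaining probe the levels were -0.69, -0.93, -0.87 and -1.18 on high-fat arrays 1 to 4, against -0.54, -0.69, -0.63 and -0.55 on control arrays 1 to 4 (adjusted p 0.823, limma over all probes). For Ndufab1, the acyl carrier protein that is also a complex I subunit, the main probe gave 0.094 ± 0.10. The second gave 0.44 ± 0.11 (limma p 0.0045, adjusted p 0.586, over all probes). On the second probe, the dimmer one and chosen after its values were seen, all high-fat arrays, between -0.86 and -0.46, lay above all control arrays, between -1.19 and -1.08. The arrays of the diets did not overlap for 3.41% of all genes, each by its probe of highest mean, and this share was not counted over all probes.

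The upward difference rested most on 2 arrays. For each subunit the deviation of an array from the mean of the gene over all 8 arrays was taken and averaged over the 78 subunits. It was -0.039, 0.27, -0.020 and 0.090 on high-fat arrays 1 to 4, against -0.20, -0.0011, -0.013 and -0.087 on control arrays 1 to 4. High-fat array 2 stood above and control array 1 below the other 6, whose values overlapped between diets. High-fat array 2 was the highest array for 66 of 78 subunits (84.6%; 15.3% of all genes), and control array 1 the lowest for 53 (67.9%; 18.4% of all genes). Without high-fat array 2 the complex medians lay between 0.011 and 0.12, and without control array 1 between 0.060 and 0.14. Without both, chosen after the data were seen, they lay between -0.021 (complex II) and 0.063 (complex V), with 60 of 78 subunits above 0.

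**Figure D3:**
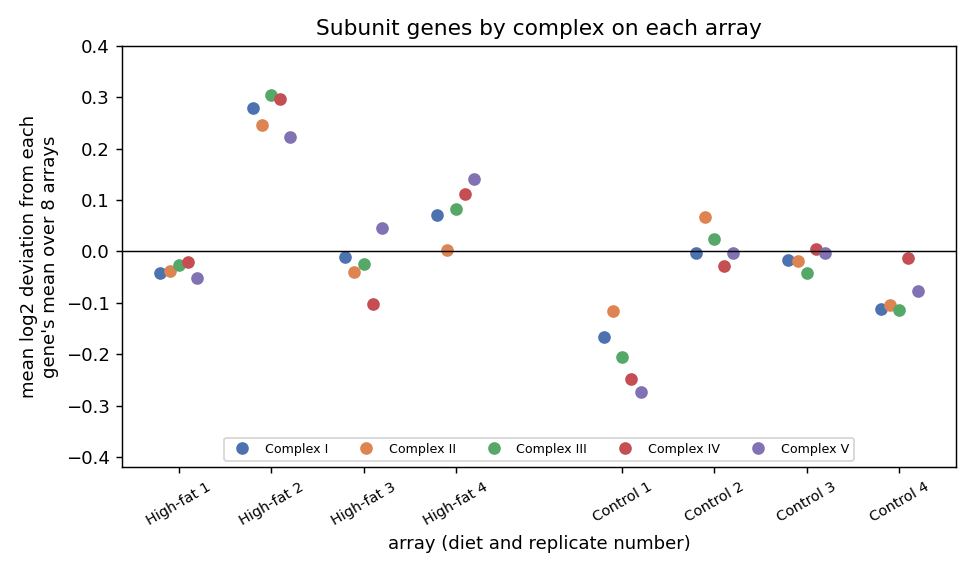
Mean log2 deviation of the subunits of each complex from the mean of each gene over 8 arrays (y axis), by array (x axis, high-fat arrays left), 1 point per complex. All complexes are highest on high-fat array 2 and lowest on control array 1, and the other arrays of the diets overlap.

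The slides gave values of different size. The median difference over all subunits was 0.23 on slide 1, which holds both of these arrays, and 0.097 on slide 2. By complex it was 0.22 and 0.088 for complex I, 0.14 and 0.044 for complex II, 0.27 and 0.11 for complex III, 0.27 and 0.042 for complex IV and 0.23 and 0.13 for complex V, slide 1 before slide 2. The difference lay above 0 for 73 of 78 subunits on slide 1, where 53.9% of all genes did, and for 62 of 78 on slide 2, where 41.6% did. The interaction of diet and slide (limma) was under an unadjusted p of 0.05 for 0 of 78 subunits, against 6.85% of all genes, with a lowest p of 0.129. No gene of 19994 passed it after adjustment. Between slides, with diet in the model, only Cox6b2 of the 78 subunits passed (0.56 ± 0.11, slide 2 minus slide 1, adjusted p 0.041, limma), against 3.26% of all genes. At an unadjusted p under 0.05 stood 3 subunits (3.85%) between slides, against 19.1% of all genes.

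Other genes of like array signal showed part of the same difference. In the band of mean log2 levels between 3 and 6, 59 subunits had a median difference of 0.16 with 56 above 0 (94.9%), and the other 1878 genes there had a median of 0.11 with 77.6% above 0. Between 4 and 5 the medians were 0.15 for 30 subunits and 0.12 for 566 other genes, and below 0 the median of the other genes lay near -0.045. The same arrays stood out in the band. Over the other genes there, the median deviation was 0.17 on high-fat array 2 and -0.14 on control array 1. The complex medians lay between -0.0089 and 0.054 under quantile normalization and between 0.0033 and 0.072 in the deposited value table. Complex II was the one complex below 0 under quantile normalization. The part of signal level in the difference of the subunits was not tested.

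**Figure D4:**
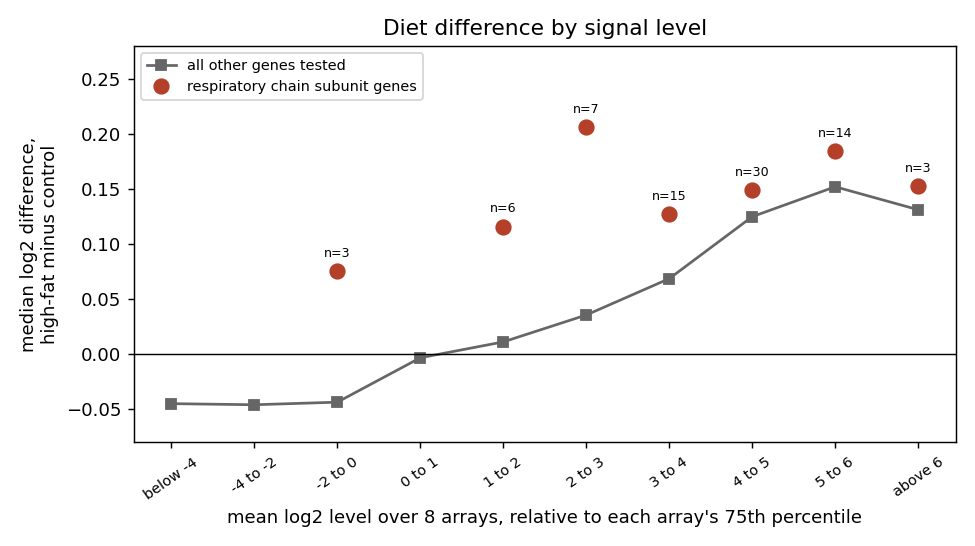
Median log2 difference, high-fat minus control (y axis), of genes grouped by their mean log2 level over 8 arrays (x axis), for subunit genes (circles, number of genes above each) and all other genes (squares). The line of the other genes climbs with signal level, up to 0.15 between 5 and 6, and the subunits lie above it in every group that holds any; under normexp the complex medians turned sign.

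Partners of the chain had medians nearer to 0 than the subunits. The 38 measured assembly factors (of 42 listed) had a median of 0.024 with 21 above 0 and none under an unadjusted p of 0.05. The 14 TCA cycle enzymes had a median of 0.041 with 9 above 0, and Idh3g, a subunit of NAD-dependent isocitrate dehydrogenase, differed by 0.17 ± 0.10. Cox16, an assembly factor of complex IV, differed by 0.19 ± 0.099. The difference between these lists and the subunits was not tested, and the lists were not matched to the subunits by signal level. The median of genes other than subunits was -0.0032 at mean log2 levels between 0 and 1 and 0.12 between 4 and 5.

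Electron carriers and coenzyme Q enzymes had a median of 0.046, with 9 of 14 above 0. Etfb, the beta subunit of the flavoprotein that brings electrons from fatty acid oxidation to ubiquinone, had levels of 4.64, 5.22, 4.69 and 4.85 on high-fat arrays 1 to 4, against 4.33, 4.52, 4.32 and 4.17 on control arrays 1 to 4. The groups did not overlap, which held for 3.41% of all genes, 1.7% higher and 1.71% lower. The log2 difference was 0.52 ± 0.15, 1.43-fold, with a limma p of 0.0088 and an adjusted p of 0.696, and it was 0.51 on slide 1 and 0.53 on slide 2. All these values of Etfb are from the probe of highest mean among its 3 kept probes. Gpd2, the mitochondrial glycerol phosphate dehydrogenase, was the 1 gene of the list with an unadjusted p under 0.05 in the other direction, at -0.45 ± 0.15 (limma p 0.014). In all, 2 of the 14 genes stood at such a p, against 5.81% of all genes, 2.5% higher and 3.32% lower.

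Transcripts of the 13 mitochondrially encoded subunits had a median difference of 0.080, with 12 above 0 and none under an unadjusted p of 0.05. Of all genes, 49.7% lay above 0. The median was 0.22 on slide 1, with 12 above 0, and -0.036 on slide 2, with 4 above 0, where 53.9% and 41.6% of all genes did. The limma interaction of diet and slide was under an unadjusted p of 0.05 for 2 of the 13, against 6.85% of all genes. ND1, a core subunit of complex I, differed by 0.19 ± 0.13. The mean deviation of the list was 0.10, 0.094, -0.087 and 0.036 on high-fat arrays 1 to 4, against -0.24, 0.00065, -0.015 and 0.11 on control arrays 1 to 4. Control array 1 was the lowest here too, while control array 4 was among the highest.

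Markers of other pancreatic cell types also differed between diets or arrays. For the counts below, 49.7% of all genes lay above 0. An unadjusted limma p under 0.05 was reached by 5.81% of all genes, 2.5% higher and 3.32% lower. Of the alpha cell markers 5 of 6 lay below 0, 4 of them at an unadjusted p under 0.05 (median -0.88), and of the delta and PP cell markers 5 of 5, 4 at an unadjusted p under 0.05 (median -0.45). The log2 of their summed levels lay between 8.11 and 8.39 on the high-fat arrays and 8.08 and 8.54 on the control arrays for alpha cells. For delta and PP cells it lay between 7.82 and 8.15 on the high-fat arrays and 8.14 and 8.47 on the control arrays. The 12 acinar markers had a median of 0.10, with 10 above 0, and 0.56 on slide 1 against -0.39 on slide 2. Their summed level lay between 11.23 and 12.03 on the high-fat arrays and 11.00 and 11.95 on the control arrays, and their mean deviation was lowest, -0.61, on control array 1. Of the macrophage markers 5 of 6 lay below 0 (median -0.45), and their summed level lay between 3.93 and 4.17 on the high-fat arrays and 4.26 and 4.58 on the control arrays. Of the stellate and pericyte markers 6 of 6 lay above 0 (median 0.24), with a summed level between 2.20 and 3.12 on the high-fat arrays and 2.07 and 2.51 on the control arrays. Endothelial markers had a median of 0.12, with 5 of 6 above 0, and ductal markers 0.0019, with 3 of 5 above 0. Beta cell markers had a median of -0.078, with 5 of 10 above 0. No marker of these lists passed after adjustment (limma), where the lowest adjusted p was 0.273, among the alpha cell markers. The part of cell make-up in the values of the subunits was not tested.

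**Figure D5:**
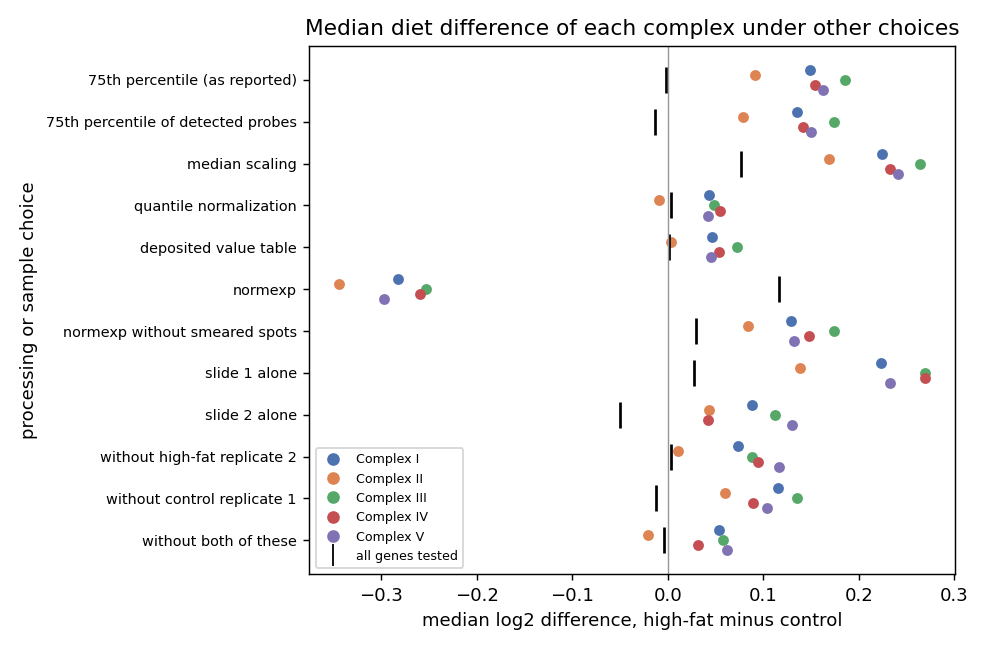
Median log2 difference, high-fat minus control (x axis), of the subunits of each complex (points) and of all genes tested (vertical marks) under each processing or sample choice (y axis). Medians of complexes I, III, IV and V stay right of 0 except under normexp, and complex II also lies left of 0 under quantile normalization and without high-fat replicate 2 and control replicate 1.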

How the data were processed

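Labelled total RNA of each sample was hybridised to 1 array with 1 dye. Per the file headers, Agilent Feature Extraction 11.5.1.1 made the scanner files, whose processed signal is a background-subtracted intensity per spot, and probe coordinates are on mm9. The deposited value table holds the authors' log2 values of 28061 probes; limma is named in the submitters' processing notes, and how the table was normalized is not stated there. The processed signal was converted to log2 minus the 75th percentile of each array. Control spots and outlier spots were left out, spots of a probe were averaged, probes well above background on at least 4 arrays were kept, and each gene was represented by its probe of highest mean. Gene names are those of the array design. Diets were compared by lmFit and eBayes of limma 3.58.1 (R 4.3.3), on all 8 arrays, 4 per diet, with no covariate, with p-values adjusted by Benjamini-Hochberg over 19994 genes, after a test on simulated data. In the simulated data, 53 of 100 genes with a true log2 difference of 1 were called and 88 of 100 with a difference of 2, with 7 false calls. Differences as small as those of the subunits were not simulated. Slide was tested as a second term and as an interaction with diet. The flags of the scanner software (above background, saturated, outlier), as deposited, hold 0 or 1 per spot. Complexes were described by medians and counts with no test.

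Genes named are Ndufa1 and Uqcrq, the 4 of each complex with the smallest p and the 1 with the lowest difference, all of complex II and the first few by p of each list; the isoforms Cox7a1, Cox4i2 and Cox6b2, Ndufv3, Ndufab1 and Gpd2 were chosen after their values were seen. The values of 1 subunit gene that is part of the counts and medians are not reported here. The members and lists were chosen with earlier results of these data known. Alternatives covered background correction, scaling, the deposited table, the probe filter, the choice of probe, the model, slides, replicate blocks and each array left out. Python 3.11.15 with pandas 2.3.3 made the summaries and motif counts.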

Additional observations from a re-analysis of the deposited data

Results flagged for a closer look

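Of 74 groups of 4 arrays looked at (named genes and the mean deviation of each complex, in each diet), 4 had an array whose gap to the nearest other array took up more of the range of the group than Dixon's test at the 95% level allows. Chance alone flags about 5% of independent groups. These groups are the same arrays read over genes that vary together, so the count of 4 was not set against that share. The mean deviation of complex II on the high-fat arrays had a gap share of 0.849, since high-fat array 2 stood at 0.25 and the next array at 0.0032. That of complex IV on the control arrays had a gap share of 0.869, with control array 1 at -0.25 and the next array at -0.028. These are the arrays on which the subunits were highest and lowest. Cox16 had a gap share of 0.879 on the control arrays, with control array 2 at a log2 level of 3.13 and the next at 3.27. ND1 had a gap share of 0.837 on the high-fat arrays, with high-fat array 2 at 2.72 and the next at 2.93. Control arrays 1 and 3 lay lower still, at 2.55 and 2.52.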

How the results depend on the processing

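The count of 0 genes past the adjusted threshold (limma, with 1162 at an unadjusted p under 0.05) became 1 in the deposited value table and 1 with trended robust eBayes, Gfra3 in both, and lay between 0 and 2 with each array left out, the 2 being Gm2115 and Gsto2 without high-fat replicate 1. No subunit passed under any of the 25 alternatives. Under normexp the medians turned to -0.28 for complex I, -0.34 for complex II, -0.25 for complex III, -0.26 for complex IV and -0.30 for complex V, with 3 of 78 subunits above 0, while the median of all genes moved to 0.12, so that relative to it the complexes lay between -0.46 and -0.37. High-fat array 2 carried 7 spots whose local background reached 261989 intensity units, and without them these medians were 0.13, 0.084, 0.17, 0.15 and 0.13 and the median of all genes 0.029. Complex II turned to -0.0089 under quantile normalization, and complex III had 0.048 there. Median scaling moved the median of all genes to 0.077. With each array left out the medians ranged from 0.073 to 0.19 for complex I, 0.011 to 0.14 for complex II, 0.088 to 0.23 for complex III, 0.090 to 0.20 for complex IV and 0.10 to 0.22 for complex V, with 69 to 75 subunits above 0; without high-fat replicate 2 and control replicate 1 together, complex II was at -0.021.

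Of 32 named genes, 28 turned sign under normexp, among them Ndufa1 -0.030, Uqcrq -0.13, Ndufb2 -0.24, Ndufb11 -0.24, Ndufa3 -0.19, Sdhc -0.21, Sdhb -0.34, Sdhd -0.35, Uqcr11 -0.25, Uqcrfs1 -0.21, Uqcrb -0.24, Uqcrc1 -0.32, Cox7c -0.18, Cox4i1 -0.28, Cox6a1 -0.23, Cox8a -0.28, Atp5g1 -0.084, Atp5h -0.24, Atp5f1 -0.16, Atp5a1 -0.31, Atp5b -0.40, Ndufv2 -0.30, Atp5d -0.29, Atp5g3 -0.30, Cox16 -0.23, Idh3g -0.25, ND1 -0.21. Elsewhere Ndufs1 turned to 0.030 under median scaling, 0.12 on slide 2 alone, and 0.00081 and 0.0050 without control replicates 1 and 2 (from -0.15 to 0.0050 over the arrays left out in turn), and Sdha to 0.013 under median scaling. Sdhb turned to -0.0071 (quantile), -0.0075 (deposited table), -0.023 (slide 2 alone) and -0.025 (both arrays left out), and Sdhd to -0.011 (quantile), -0.0021 (without high-fat replicate 2) and -0.016 (both left out). Uqcrc1 turned to -0.025 (slide 1 alone), -0.014 (without control replicate 3), -0.057 (without high-fat replicate 2) and -0.056 (both left out). Atp5b turned to -0.11 (quantile), -0.078 (deposited table), -0.0061 (slide 2 alone), -0.014 (without control replicate 1; up to 0.079 with other arrays left out) and -0.039 (both left out). The causes of these turns other than under normexp were not tested.

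Genes past the threshold between slides numbered 651, against 0 under normexp, 192 under normexp without the smeared spots, 283 under median scaling, 1015 in the deposited table and 317 with no filter on dim probes. The interaction count stayed at 0 in each setting run. With the replicate number as a replicate block, 0 genes passed and 5 subunits in place of 3 had an unadjusted p under 0.05 (1846 genes in place of 1162). The deviations of same-numbered arrays, which shared a slide, correlated at 0.21, 0.40, -0.0051 and 0.30. High-fat arrays 1, 2 and 4 correlated best with the control array of their own number, and high-fat array 3 with control array 1. The labels give no pairing, so the numbers were not taken to pair the samples.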
